A study of Oryza sativa Japonica Group with 9 samples.

Results

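The circadian clock genes described here are 8 rice loci, taken by their locus names from the 55986 genes of the deposited RNA tables, and all 8 were found in each of the 6 tables. They are OsLHY (LOC_Os08g06110, the LHY/CCA1 gene), OsPRR73 (LOC_Os03g17570), OsPRR37 (LOC_Os07g49460), OsPRR95 (LOC_Os09g36220), OsPRR59 (LOC_Os11g05930), OsPRR1 (LOC_Os02g40510, the TOC1 gene), OsGI (LOC_Os01g08700) and OsELF3-1 (LOC_Os06g05060). The symbols come from the rice literature, and the tables themselves describe 5 members as pseudo-response or response regulators and 1 as gigantea. OsLHY stands there as a homeodomain-like protein and OsELF3-1 as a hydroxyproline-rich glycoprotein, which are names of protein classes.

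The plants were 4-leaf seedlings of the japonica rice Zhonghua 11 (ZH11), of an osbzip23 mutant and of an OsbZIP23 overexpression line, and RNA came from their above-ground parts. OsbZIP23 is a basic leucine zipper factor of the response to abscisic acid, the drought hormone. Each of the 3 genotypes gave 1 RNA library from watered plants (normal) and 1 from plants whose leaves had all rolled in drought, so there were 6 groups of 1 library. Both lines came from an earlier study by the same laboratory, each is 1 line, and the promoter that drives OsbZIP23 in the overexpressor was not given in the sources used here. All plants grew in natural light with 14 h of sun and 10 h of dark, and stressed and watered plants were harvested at the same time. The hour of harvest was not given in the sources used here.

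The plant clock is a set of transcription factors that repress each other in turn through the day. LHY, a MYB factor, peaks at dawn. The pseudo-response regulators (PRR) follow in waves from morning to evening and repress LHY, and the last of them is TOC1, called OsPRR1 in rice. GIGANTEA (GI), a large protein of the late day, stabilises light-sensing F-box proteins, and ELF3 holds together the evening complex of ELF3, ELF4 and LUX, which represses genes at night. In rice the same genes set heading date: OsPRR37, OsGI and OsELF3-1 were each found as genes of photoperiodic flowering.

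Total reads per library ran from 9.48 M to 13.5 M. The mutant drought library had the fewest reads, and 29340 genes with reads against 33054 to 33599 in the other libraries. Whether this bears on its clock gene values was not tested. Read numbers were scaled to library size (CPM) with edgeR's TMM factors, which take most genes to be unchanged between libraries. They ran from 0.754 in mutant drought to 1.21 in mutant normal, and every drought factor was below every normal one. Drought changed 53.6% of all genes in the test below, so this premise may not hold here. OsbZIP23 itself was at 32.5 CPM in ZH11 normal, 11.9 CPM in mutant normal and 1325 CPM in overexpressor normal. Under drought it was at 479.6, 158 and 457 CPM in the same order, so the overexpressor was not above ZH11 in the drought libraries. Of the defining leaf transcripts, RbcS fell from 10110 ± 2062 to 108 ± 88.8 CPM (SD, n = 3 genotypes) under drought, and the other 2, CAB1R and CAB2R, fell with it. Of 2 root markers Lsi2 had 0 reads in every library and Lsi1 ran from 3.65 to 9.94 CPM, and the meristem marker OSH1 had at most 2 reads. Whether fewer cells of a type or less RNA per cell lies behind a lower level cannot be told apart in such whole-shoot RNA. The part of the leaf and root markers in the results on clock genes was not tested.

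Levels of different genes were compared in the authors' FPKM, which divides by gene length. In watered plants OsGI was highest at 407 ± 22.1 FPKM (SD, n = 3 genotypes), followed by OsPRR95 at 157 ± 28.1 and OsPRR73 at 136 ± 10.6, whose ranges over the libraries overlapped. OsPRR37 at 51.6 ± 7.64, OsPRR1 at 42.6 ± 4.31 and OsPRR59 at 39.8 ± 4.16 FPKM formed the middle of the order, and neighbours among them overlapped in range. OsELF3-1 followed at 27.4 ± 0.719 FPKM and OsLHY was lowest at 5.51 ± 1.28 FPKM, in all 3 watered libraries.

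Under drought OsGI stayed first in all 3 libraries, at 273 ± 42.7 FPKM. OsLHY moved from the last place of 8 to rank 4 in ZH11, rank 2 in the mutant and rank 6 in the overexpressor. OsPRR37 moved from rank 4 in the 3 watered libraries to rank 8 in ZH11 and the overexpressor and rank 7 in the mutant, where OsPRR1 was last at 2.62 FPKM. The levels of each gene in each library are plotted on one common scale.

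**Figure D1:**
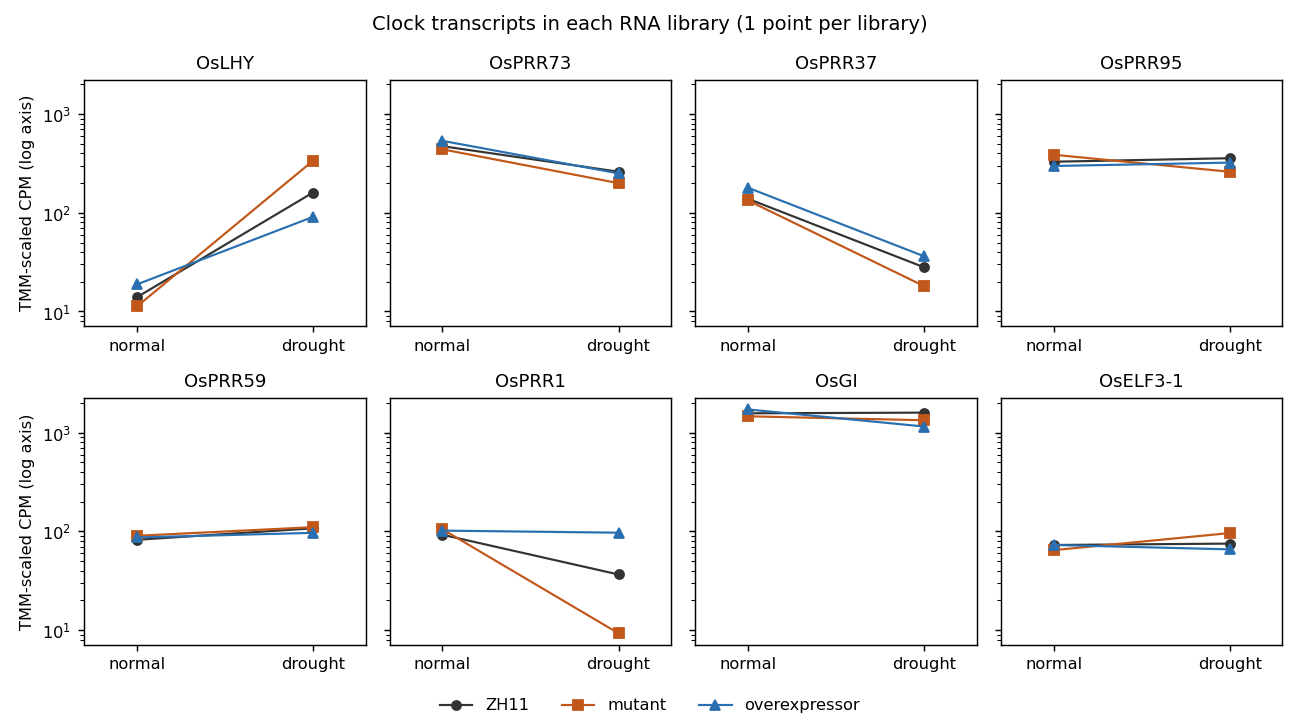
TMM-scaled CPM (log axis) of the 8 clock genes in normal and drought libraries, 1 point per library, with lines joining the libraries of ZH11, the mutant and the overexpressor. OsLHY is higher and OsPRR37 and OsPRR73 are lower in each drought library than in each normal library, while OsPRR1 spans 9.25 to 96.9 CPM under drought.

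The drought comparison asks which clock transcripts differ between stressed and watered plants over the 3 genotypes. OsLHY rose, OsPRR37 and OsPRR73 fell, and the other 5 members did not pass. The test was edgeR's quasi-likelihood fit over all 6 libraries with additive terms for genotype and stress, and a gene passed at a Benjamini-Hochberg adjusted p under 0.05 over the 21409 genes tested. By this rule 53.6% of all genes changed with drought, 26.1% up and 27.5% down. Under total count scaling, which leaves out the TMM factors, 4024 genes rose and 7328 fell, against 5579 and 5896 here. The 3 of 8 clock genes that changed were not a larger share than that of all genes. These shares rested on single libraries: without ZH11 normal 24.0% of all genes and 2 of the 8 clock genes were called, without ZH11 drought 22.3% and 2 of 8, and without mutant normal or mutant drought 43.8% or 43.6% and 2 of 8. Without overexpressor normal or drought 60.8% or 61.3% of all genes were called, and 4 of the 8 clock genes. The median log2 fold change was -0.17 over the 8 clock genes and -0.15 over all genes tested. Since the genotypes stand in for replicates, a drought effect that depends on genotype sits in the error. The error of each gene joins its 2 residual degrees of freedom with 4.02 prior ones drawn from all genes. The p-values thus do not measure the spread between plants of a genotype.

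OsLHY, the dawn factor, had the largest change of the 8. It was at 13.9 CPM in ZH11, 11.2 in the mutant line and 18.8 in the overexpressor when watered, and at 160.5, 337 and 91.0 CPM in the same order under drought. The lowest drought library lay well above the highest watered one. The log2 fold change was 3.56 (SE 0.55, edgeR adjusted p = 0.00351), higher in 3 of 3 genotypes. Leaving out a library removes the drought difference of its genotype from the estimate. Without the mutant normal or the mutant drought library the change was 2.89 or 2.94, and without the overexpressor normal or drought library it was 4.20 or 4.26, and it passed in all 4 cases.

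OsPRR37 and OsPRR73 are the pair of the PRR3/PRR7 clade, repressors of the morning loop, and OsPRR37 also delays heading in long days. OsPRR37 was at 138.8 CPM in ZH11, 133 in the mutant line and 179.7 in the overexpressor when watered, against 28.1, 18.1 and 36.3 CPM under drought. Every drought library was below every watered one, and OsPRR37 fell by 2.49 on the log2 scale (SE 0.25, edgeR adjusted p = 0.00101). OsPRR73 was at 474, 440.3 and 537 CPM in watered ZH11, mutant and overexpressor and at 261, 199.9 and 251 CPM under drought. Its groups did not overlap either, and it fell by 1.03 (SE 0.27, edgeR adjusted p = 0.0198). The call of OsPRR73 was lost without any 1 of the ZH11 and mutant libraries, in fits with fewer residual degrees of freedom. Its adjusted p (edgeR) was 0.147 without ZH11 normal and 0.160 without ZH11 drought. It was 0.0988 without mutant normal and 0.125 without mutant drought. The changes in these fits ran from -1.14 to -0.93, and without ZH11 normal or ZH11 drought they were -1.14 and -1.10. Both fits of a genotype take out the same drought difference, so they largely repeat each other.

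OsPRR95 and OsPRR59 belong to the PRR5/PRR9 clade. OsPRR59 was at 82.1, 90.1 and 86.7 CPM in watered ZH11, mutant and overexpressor and at 107, 110.2 and 96.6 CPM under drought. In CPM all 3 drought libraries lay above the watered ones, by a small margin. In the authors' FPKM the states overlapped, at 35.85 to 44.14 when watered and 33.68 to 38.35 under drought. The log2 fold change of OsPRR59 of 0.28 (SE 0.21, edgeR adjusted p = 0.306) did not pass. OsPRR95 was at 329.7, 388 and 298 CPM when watered and at 358, 261 and 323 CPM under drought. These CPM ranges overlapped, with the mutant the highest of the watered libraries and the lowest of the drought ones. In the authors' FPKM they did not overlap, at 134.4 to 188.5 when watered and 79.58 to 132.1 under drought. The log2 fold change of OsPRR95 was -0.11 (SE 0.29, edgeR adjusted p = 0.759).

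OsPRR1, the evening regulator that represses LHY in the Arabidopsis clock, was even among watered plants and spread widely under drought. It was at 92.4 CPM in ZH11, 104.8 in the mutant line and 101.7 in the overexpressor when watered. Under drought it was at 36.5 CPM in ZH11, 9.25 in the mutant line and 96.9 in the overexpressor. In CPM the overexpressor under drought lay within the watered range, and the mutant under drought was lowest of the 6 libraries. In the authors' FPKM the overexpressor under drought was at 36.6, below the watered range of 38.35 to 46.96. The standard deviation over the 3 genotypes was 0.09 log2 units in watered plants and 1.67 under drought, against medians of 0.24 and 0.41 over all genes tested. OsPRR1 did not pass in the additive fit (log2 fold change -1.57, SE 0.66, edgeR adjusted p = 0.0875). It passed without the overexpressor normal library (-2.37, adjusted p = 0.00228) or the overexpressor drought library (-2.30, adjusted p = 3.8e-04). Without mutant normal the change was -0.71 and without mutant drought -0.66, both not passed. With DESeq2 it also passed (-1.50, adjusted p = 0.0134), as it did under total count scaling (-1.95, adjusted p = 0.0485) and with no filter on low counts (-1.60, adjusted p = 0.00197).

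In TMM-scaled CPM, OsGI and OsELF3-1 had levels that overlapped between the states. In the authors' FPKM the states did not overlap for either gene. OsGI was at 393.3 to 432.1 FPKM when watered and 232.5 to 317.5 under drought, and OsELF3-1 at 26.6 to 27.9 and 22.4 to 24.89. OsGI was at 1572, 1466 and 1721 CPM in watered ZH11, mutant and overexpressor and at 1597, 1337 and 1155 CPM under drought. The overexpressor was the lowest drought library, and the log2 fold change was -0.23 (SE 0.36, edgeR adjusted p = 0.612). OsELF3-1 was at 72.7, 64.4 and 72.8 CPM when watered and at 75.1, 96.0 and 65.7 CPM under drought. The mutant was the lowest watered and the highest drought library, with a log2 fold change of 0.16 (SE 0.24, edgeR adjusted p = 0.601). In total, 4 of the 8 genes had drought and watered libraries that did not overlap in CPM, 2 above and 2 below, while 65.6% of all tested genes had such a separation, 31% above and 34.6% below.

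How the libraries are scaled moves all of these values together. Under total count scaling the median of all genes tested shifted by -0.39, and the log2 fold changes of OsPRR59 and OsELF3-1 became -0.12 and -0.24, still not passed. Relative to the median of all genes, OsLHY stood at 3.71 with either scaling, OsPRR37 at -2.34, OsPRR73 at -0.88, OsPRR59 at 0.43, OsELF3-1 at 0.31, OsPRR95 at 0.04 and OsGI at -0.08. OsPRR1 stood at -1.42 with TMM scaling and -1.40 with total count scaling. Most log2 drought ratios from the authors' FPKM lay near those of total count scaling. In ZH11 they were -0.246 for OsPRR95, -0.309 for OsGI and -0.311 for OsELF3-1. Total count scaling gave -0.245, -0.34 and -0.314, and TMM gave 0.118, 0.022 and 0.047. OsLHY in the overexpressor lay nearer TMM, at 2.215 against 2.244, with 2.099 under total count scaling. The FPKM ranges above are thus not free of the scaling between libraries.

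The number of OsLHY reads over OsPRR1 reads within a library sets the dawn gene against the evening gene and does not depend on scaling between libraries. In watered plants it was 0.151 in ZH11 (95% counting interval 0.129 to 0.176), 0.107 in the mutant line (0.0908 to 0.126) and 0.185 in the overexpressor (0.160 to 0.213). Under drought it was 4.39 in ZH11 (3.95 to 4.89), 36.4 in the mutant line (28.5 to 47.3) and 0.939 in the overexpressor (0.857 to 1.03). Every drought library lay above every watered one, and the 3 drought libraries differed from each other by far more than the watered ones did. The mean log2 ratio was -2.79 ± 0.40 in watered plants and 2.41 ± 2.65 under drought (SD, n = 3 genotypes), a difference of 5.20 (exact permutation test, 2-sided, p = 0.1). This is the smallest p that an exact permutation test of 3 libraries against 3 can give. The difference was 3.81 without the mutant drought library and 6.45 without the overexpressor drought library. The intervals here and below are exact (Clopper-Pearson) and cover counting error only.

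**Figure D2:**
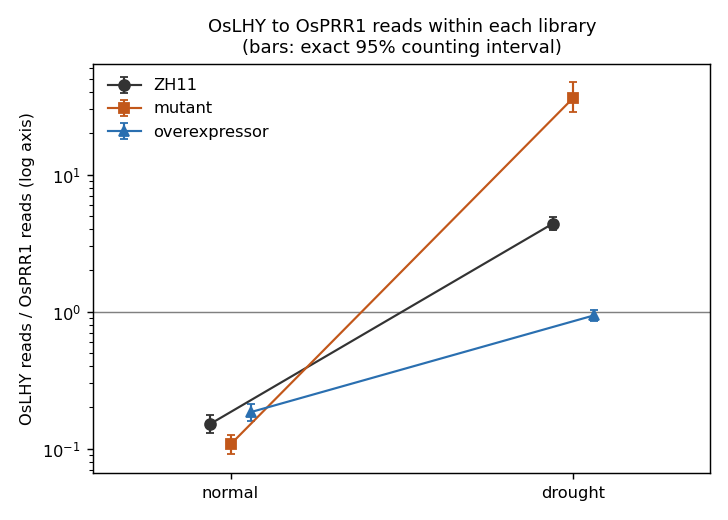
Reads of OsLHY divided by reads of OsPRR1 within each of the 6 libraries (log axis), with exact 95% counting intervals and lines joining the libraries of one genotype. The 3 watered libraries lie between 0.107 and 0.185, and the drought libraries at 0.939 in the overexpressor, 4.39 in ZH11 and 36.4 in the mutant.

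Drought ratios by genotype were single-library ratios without a test. OsLHY was 11.5-fold higher under drought in ZH11 (95% counting interval 9.90 to 13.4), 30.0-fold in the mutant line (25.6 to 35.3) and 4.84-fold in the overexpressor (4.18 to 5.62). OsPRR1 under drought was at 0.395 of the watered level in ZH11 (0.353 to 0.442), 0.0883 in the mutant line (0.0680 to 0.113) and 0.952 in the overexpressor (0.875 to 1.04). For both genes the mutant had the ratio farthest from 1 and the overexpressor the nearest. OsPRR37 was at 0.202 in ZH11 (0.179 to 0.227), 0.136 in the mutant line (0.113 to 0.162) and 0.202 in the overexpressor (0.180 to 0.226). OsPRR73 was at 0.551, 0.454 and 0.468 in the same order. These repressors were below the watered level in every genotype, with a narrower spread than OsPRR1.

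OsGI under drought was at 1.02 of the watered level in ZH11, 0.912 in the mutant line and 0.671 in the overexpressor (0.656 to 0.687). In ZH11, 1 of the 8 clock genes was at least 2-fold higher under drought and 2 were at least 2-fold lower, where 25% and 29.5% of the genes with 10 or more reads in one of the libraries were (54.5% in both directions). The mutant had 1 higher and 3 lower, against 26.5% and 32.7% (59.2%). The overexpressor had 1 higher and 2 lower, against 20.1% and 20.6% (40.6%), so fewer of all genes passed this fold in that line. Under total count scaling the sign of the log2 ratio turned in 6 of the 24 drought ratios of the clock genes. The median log2 ratio of drought over normal for the leaf markers was -5.32 in ZH11, -5.50 in the mutant line and -4.61 in the overexpressor. Whether these differences between genotypes bear on the clock genes was not tested.

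The genotype comparisons set the clock genes in each line against ZH11. OsbZIP23 was below ZH11 in both mutant libraries, and above it in the overexpressor in the watered library only. In the additive fit 0 of 8 members passed in the mutant and 0 of 8 in the overexpressor, with adjusted p (edgeR) of 0.942 or more. The background was low: 0.014% of all tested genes changed in the mutant and 0.0187% in the overexpressor. Of the 8 members, 0 had an unadjusted p under 0.05 in either comparison, and DESeq2 called 0 of 8 in each as well. The same fit did not call OsbZIP23 itself, at -1.56 in the mutant (edgeR adjusted p = 0.9999) and 3.53 in the overexpressor (edgeR adjusted p = 0.942), so a count of 0 here says little about the clock genes.

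In watered plants the 8 clock genes were within 2-fold of ZH11 in both lines, where 3.44% of all genes were at least 2-fold higher and 4.03% lower in the mutant (7.46% in all), and 2.36% higher and 3.86% lower in the overexpressor (6.22%). In the mutant OsLHY was at 0.806 of the ZH11 level (95% counting interval 0.650 to 0.998) and OsPRR95 at 1.18 (1.13 to 1.22). Which of them lay farther from ZH11 depended on scaling, with log2 ratios of -0.30 and 0.23 after TMM and of -0.19 and 0.35 under total count scaling. In the overexpressor the farthest were OsLHY at 1.35 (1.11 to 1.64) and OsPRR37 at 1.29 (1.22 to 1.38). OsPRR1 was at 1.13 in the mutant and 1.10 in the overexpressor.

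Under drought the lines stood apart from ZH11 in OsLHY and OsPRR1, and the comparisons share the ZH11 drought library. In the mutant OsLHY was at 2.10 of the ZH11 level (95% counting interval 1.98 to 2.23) and OsPRR1 at 0.253 (0.192 to 0.329), with the other 6 members within 2-fold. OsPRR37 in that library was at 0.644 (0.522 to 0.792), OsPRR73 at 0.766, OsPRR95 at 0.730 and OsELF3-1 at 1.28. In the overexpressor OsPRR1 was at 2.65 of the ZH11 level (2.37 to 2.98), and it was the only member of 8 at least 2-fold apart. OsLHY there was at 0.567 (0.523 to 0.614) and OsGI at 0.723 (0.707 to 0.741). Of all genes, 5.97% were at least 2-fold higher and 6.07% lower than ZH11 in mutant drought (12%), and 11.2% higher and 8.51% lower in overexpressor drought (19.7%). Under total count scaling OsLHY in the mutant had a log2 ratio of 0.87, below 2-fold, while OsPRR1 kept to -2.11 in the mutant and 1.61 in the overexpressor. Beside these values, the leaf marker RbcS was at 2.42 of the ZH11 drought level in the mutant and 6.01 in the overexpressor, and OsbZIP23 at 0.330 and 0.954. Each of these values compares 1 library with 1, and the intervals hold no difference between plants.

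**Figure D3:**
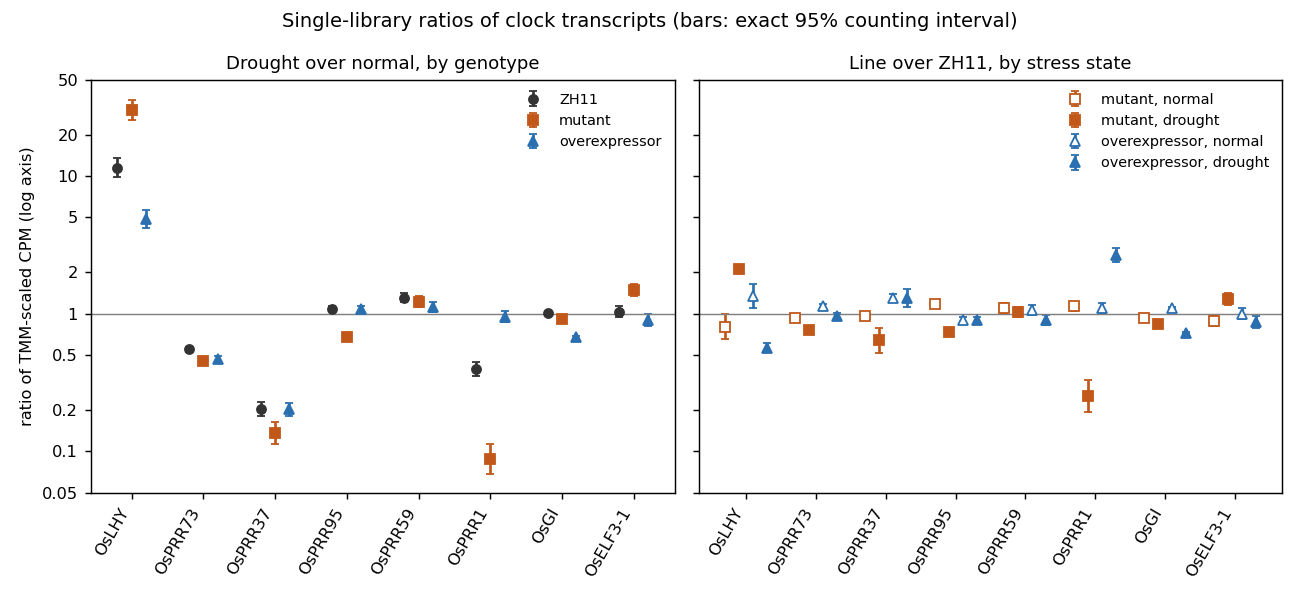
Ratios of TMM-scaled CPM (log axis) for the 8 clock genes, drought over normal in each genotype on the left and each line over ZH11 in each stress state on the right, with exact 95% counting intervals. On the left OsLHY runs from 4.84 to 30.0 and OsPRR1 from 0.0883 to 0.952, and on the right OsPRR1 under drought lies at 0.253 in the mutant and 2.65 in the overexpressor.

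Other genes of the clock were taken from a list of 10, all of them tested. Of these, 4 rose and 1 fell with drought, against backgrounds of 26.1% and 27.5% of all genes, and the list's median log2 fold change was 0.39. OsLUX, the DNA-binding member of the evening complex, rose from 27.1 ± 13.2 to 75.2 ± 7.59 CPM (SD, n = 3 genotypes). Hd6, a casein kinase 2 subunit, had a rise of 1.39 on the log2 scale, and OsELF3-2, the second ELF3 gene, rose from 31.1 ± 1.54 to 76.5 ± 4.19 CPM, while OsELF3-1 did not pass. OsZTL1, an F-box blue-light receptor of the type that degrades TOC1 in Arabidopsis, rose from 96.6 ± 6.86 to 192.6 ± 18.1 CPM. OsELF4a, a further evening complex gene, fell from 11.1 ± 1.60 to 4.05 ± 2.48 CPM.

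Evening complex genes thus went both ways with drought: OsLUX and OsELF3-2 rose, OsELF4a fell, and OsELF4b (-0.56), OsELF4c (0.65) and OsELF3-1 did not pass. The clock-associated kinase Hd16 (-0.36) and the F-box genes OsZTL2 (0.13) and OsFKF1 (-0.07) did not pass either. Without the ZH11 normal or the ZH11 drought library 0 of the 10 genes were called, in fits that called 5238 and 4898 genes in all. Without mutant normal or mutant drought 3 rose and 1 fell, with OsZTL1 lost. With total count scaling, 3 rose and 3 fell, with OsZTL1 lost (adjusted p = 0.0697) and OsELF4b and Hd16 added to the falls.

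Of the single-library ratios between genotypes a few are given here, chosen after their values were seen. OsFKF1, the F-box protein that works with GI in Arabidopsis, had a drought level in the mutant of 0.494 of ZH11 (95% counting interval 0.447 to 0.546) and in the overexpressor of 0.732. OsELF4a had 0.507 (0.250 to 0.963) in the mutant, from 13 reads, and 1.87 (1.25 to 2.82) in the overexpressor. OsELF4a thus lay on opposite sides of ZH11 in the lines. OsLUX under drought had 0.907 in the mutant and 0.817 in the overexpressor, but in watered plants the mutant was at 1.99 of ZH11 (1.73 to 2.29).

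Photoperiodic flowering genes, which read the clock, were a list of 9, of which 5 had enough reads to be tested. Of the 5, 2 rose and 2 fell, where 26.1% and 27.5% of all genes did, and OsCOL4 (-0.67), a repressor of heading, did not pass. Hd1, the rice CONSTANS gene, rose from 1.34 ± 0.263 to 25.3 ± 14.0 CPM (SD, n = 3 genotypes), with a log2 fold change of 4.10 (SE 0.44, edgeR adjusted p = 0.00119). Its levels under drought were 21.0 CPM in ZH11, 40.9 in the mutant line and 14.0 in the overexpressor, the same order as OsLHY. DTH8, a subunit of nuclear factor Y that delays heading in long days, fell from 3.88 ± 0.392 to 0.123 ± 0.107 CPM, with 4 reads over the drought libraries.

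OsMADS50, a promoter of heading, fell from 37.1 ± 4.79 to 19.7 ± 5.43 CPM, and OsMADS51 rose from 41.8 ± 3.18 to 75.9 ± 12.6 CPM. The median log2 fold change of the 5 tested genes of the list was -0.67, against -0.15 over all genes. Of the 4 genes not tested, Ehd1, a promoter of heading, had 12 reads over the watered libraries and 0 under drought. Of the 12 reads, 8 came from the watered mutant library. Against a floor of 3 counts over the drought group, Ehd1 was 2.87-fold lower, a value that takes the watered reads as exact. The 95% counting intervals of its drought ratio all included 1, with upper limits of 45.4 (ZH11), 1.21 (mutant) and 2.89 (overexpressor). A fall was thus not shown within any 1 genotype, and the pooled reads were not tested. Over the fits that leave out 1 library, Hd1 and DTH8 passed every time, while OsMADS50 was lost without ZH11 normal or ZH11 drought and OsMADS51 without either of these or either mutant library. Leaving out ZH11 normal or ZH11 drought gave 1 rise and 1 fall, and leaving out either mutant library 1 and 3. Leaving out either overexpressor library gave 2 and 3, and total count scaling 1 and 3. The genes of the list tested were 6 without mutant normal and 7 without mutant drought or either overexpressor library. In the other fits named here 5 were tested. The shares of all genes called in these fits are those given above for the clock genes, and 53.0% under total count scaling.

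Light receptors and their signalling partners, which feed the clock, were a list of 10, of which 9 were in the tables and 8 tested. With drought 1 rose and 5 fell, where 26.1% and 27.5% of all genes did, with a median log2 fold change of -0.75 against -0.15 over all genes. OsPIL13, a bHLH factor of the phytochrome-interacting type, fell from 40.1 ± 13.5 to 1.49 ± 0.256 CPM (SD, n = 3 genotypes), with a log2 fold change of -4.73 (SE 0.33, edgeR adjusted p = 4.8e-04). The cryptochrome OsCRY1b fell from 107.7 ± 14.0 to 44.5 ± 9.21 CPM, and the phytochromes PhyB, PhyC and PhyA fell by 1.13, 0.81 and 0.69 on the log2 scale. PPS, the rice COP1, which marks light-signalling proteins for breakdown, rose from 29.1 ± 2.55 to 60.3 ± 3.39 CPM. OsCRY1a (-0.38) and OsCRY2 (-0.61) did not pass. OsPIL13 passed in each fit that left out 1 library, and it was the only call of the list without ZH11 normal or ZH11 drought. The calls with mutant normal left out were 1 rise and 2 falls of 8 tested. With mutant drought left out they were 1 rise and 3 falls of 9 tested. The fall of PhyA passed in only 2 of the 10 alternatives and was lost with DESeq2, with DESeq2 size factors, with no filter and in 5 of the 6 fits without 1 library, all but that without overexpressor normal. PhyB and PhyC were lost without any 1 of the ZH11 and mutant libraries. With total count scaling, 0 rose and 7 fell, where 4024 of all genes rose and 7328 fell.

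**Figure D4:**
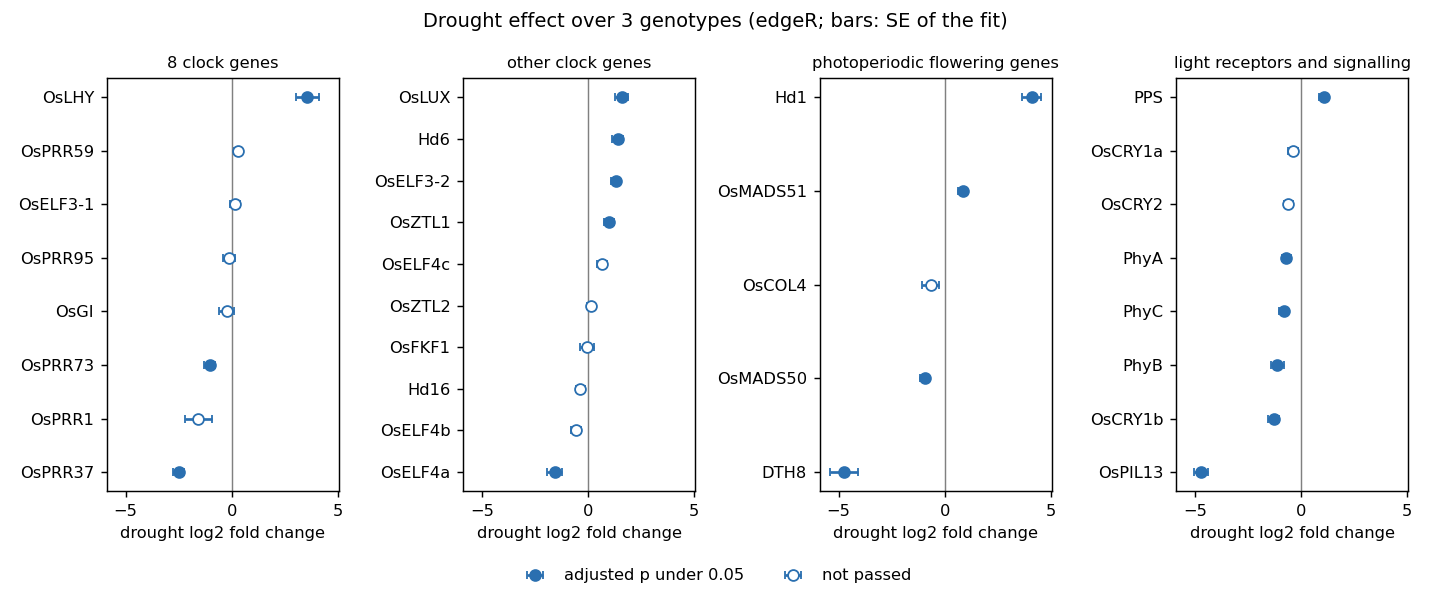
Drought log2 fold change from the edgeR fit over 3 genotypes, with bars for the standard error, for the 8 clock genes and 3 lists of related genes. Filled points passed at an adjusted p under 0.05. OsLHY and Hd1 stand at 3.56 and 4.10, and OsPIL13 at -4.73.

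Genes with the profile most like each member were sought among 11408 genes with a mean of at least 10 CPM. Likeness was the root mean square difference of log2 levels over the 6 libraries after centring each gene on its own mean, and this is a description of these libraries. For OsLHY the nearest were LOC_Os08g04830, with no description, at 0.16 log2 units, and a pectin lyase-like gene (LOC_Os09g31270), also at 0.16. The latter ran from 5.51 to 76.8 CPM in ZH11, 4.50 to 140.8 in the mutant and 6.96 to 30.1 in the overexpressor. For OsPRR1 the nearest was a tetratricopeptide repeat gene (LOC_Os02g42210) at 0.14, which was at 6.33, 1.68 and 16.6 CPM in drought ZH11, mutant and overexpressor. The next was a gene of the DNA/RNA polymerase superfamily (LOC_Os09g07120) at 0.19.

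For OsPRR37 the nearest were a chloroplastic lipocalin (LOC_Os04g53490) and an alanyl-tRNA synthetase (LOC_Os06g13660), both at 0.13. For OsPRR73 they were an HflX-type GTP-binding protein (LOC_Os11g38020) at 0.06 and an iron-sulphur cluster protein (LOC_Os02g33010) at 0.06. For the 4 members with the smallest ranges they were all within 0.07. They were an APR-like gene (LOC_Os08g31814) and a SecY-type transport protein (LOC_Os09g17830) for OsPRR95, and LOC_Os03g58780 and a DHHC zinc finger gene (LOC_Os09g38970) for OsPRR59. For OsGI they were a cold shock domain protein (LOC_Os02g02870) and a calcium-dependent protein kinase (LOC_Os11g07040), and for OsELF3-1 LOC_Os02g39050 and a bile acid symporter family gene (LOC_Os01g45750). Within the clock the closest pair was OsPRR59 and OsELF3-1, at 0.16, and OsLHY was at least 1.71 from every other member.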

How the data were processed

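The deposited RNA tables hold, per the file headers, read numbers per gene (estimated counts in steps of 0.5, in the authors' unit of reads) and the authors' FPKM. The submitters' processing notes name Trimmomatic 0.32, TopHat2 2.0.8 and edgeR 3.6.0; the sources used here give no counting tool, strand setting, genome build or annotation. Without a strand setting, reads of overlapping genes cannot be told apart. The 15 repeated gene names were summed and read numbers rounded. Tests used edgeR 4.0.16 in R 4.3.3: TMM, filterByExpr by stress group, additive genotype and stress terms, 2 residual and 4.02 prior degrees of freedom. DESeq2 1.42.0 was an alternative. Standard errors come from the F statistic. Single-library ratios of TMM-scaled CPM plus 0.5 decided the 2-fold counts; printed ratios carry exact 95% intervals. To check the code, the fit was run on simulated counts. These had fewer changed genes, less spread between libraries and no drought effect that depended on genotype. They do not show how accurate the fit is here. Groups had 1 library each, so genotype by stress was not tested.

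Members, gene lists and tests were chosen with earlier results of these data known. Named genes were all 8 members, up to 6 called genes per list, the 2 nearest profiles per member, and single-library values chosen after they were seen. Binding near clock genes and promoter motifs were not analysed here, and 1 further flowering gene, not counted in its list, is not reported here. Depth was 9.48 M to 13.5 M reads.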

Additional observations from a re-analysis of the deposited data

Results flagged for a closer look

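The drought ratios of 2 clock genes went opposite ways between genotypes, with counting intervals on either side of a ratio of 1. OsPRR95 had a log2 drought ratio of 0.12 in ZH11 and 0.11 in the overexpressor, and of -0.57 in the mutant. OsELF3-1 had 0.57 in the mutant and -0.15 in the overexpressor. Each value rests on 1 library against 1, and the differences were not tested. Under total count scaling OsPRR95 had -0.25 in ZH11, -0.04 in the overexpressor and -1.25 in the mutant, all the same way. OsELF3-1 then had -0.10 in the mutant and -0.29 in the overexpressor, both the same way, so the opposite signs of both genes rest on the TMM factors.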

How the results depend on the processing

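The genotype term of the fit pairs the drought and normal library of each genotype, while the permutation test did not use that pairing. The labels carry no replicate numbers for any further pairing. OsLHY and OsPRR37 passed under each of the 10 alternatives for drought, with log2 fold changes of 2.89 to 4.26 and -2.89 to -2.26. OsPRR73 kept its direction, and over the fits that leave out 1 library its change ran from -1.14 to -0.93. OsPRR1 ran from -2.37 to -0.66 in those fits and passed with DESeq2 (-1.50), total count scaling (-1.95) and no filter (-1.60). Total count scaling turned OsPRR59 to -0.12 and OsELF3-1 to -0.24. Leaving out 1 library, OsPRR95 ran from -0.25 to 0.16, OsELF3-1 from -0.062 to 0.36 and OsGI from -0.37 to -0.0060. The OsLHY to OsPRR1 difference ran from 3.81 to 6.45, with p = 0.2 (exact permutation test), the smallest possible there.

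The number of genes changed by drought ran from 4898 to 13787 without 1 library. Genes changed in the mutant numbered 3, with 84 in DESeq2, 9 under total count scaling, 1 with DESeq2 size factors, 184 without a filter and 0 to 185 without 1 library. In the overexpressor they numbered 4, with 66, 12, 4 and 158, and 0 to 422. For the overexpressor comparison, DESeq2 turned OsPRR73 to -0.00012 and DESeq2 size factors to -0.00021, and total count scaling turned OsPRR59 to 0.078 and OsELF3-1 to 0.018, none of them passed. No member passed in a genotype comparison under any of the 10 alternatives. Leaving out 1 library, log2 fold changes in the mutant ran from -0.68 to 1.34 for OsLHY, -0.46 to 0.22 for OsPRR95, -2.34 to 0.45 for OsPRR1, -0.36 to 0.018 for OsGI and -0.24 to 0.40 for OsELF3-1. In the overexpressor they ran from -1.18 to 0.73 for OsLHY, -0.064 to 0.19 for OsPRR73, -0.35 to 0.039 for OsPRR95, -0.12 to 0.047 for OsPRR59, -0.47 to 1.85 for OsPRR1, -0.42 to 0.065 for OsGI and -0.33 to 0.10 for OsELF3-1. The alternatives for binding peaks (a stricter threshold, other windows) were not run, since gene positions of the build of the peaks were not used here.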
